A study of Mus musculus with 10 samples.

Results

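The NF-kB subunit genes Rela, Nfkb1, Nfkb2, Relb and Rel, with Bcl3, the gene of their nuclear cofactor BCL3, were followed in 10 RNA-seq libraries of primary mouse keratinocytes. They are 6 of the 37991 gene identifiers in the deposited table and were chosen by name, as the rows whose identifier carries one of these symbols in the GRCm38 annotation. All 6 passed the filter on low values (a mean of at least 1 FPKM, fragments per kilobase of transcript, scaled to sequencing depth), as did 12054 genes in all. Keratinocytes, which make up most of the epidermis, were grown from the skin of pups of postnatal day 4 to 5, on collagen in serum-free medium with 0.05 mM CaCl2. Every pup carried the Bcl10tm1Mak allele, on both chromosomes in the knockout (Bcl10-/-) or on 1 in the heterozygous littermates (Bcl10+/-), so no wild-type cells were compared. Recombinant mouse IL-17A was given at 200 ng/mL for 5 h, or not at all. The groups were knockout with IL-17A (2 libraries), knockout unstimulated (2), heterozygous with IL-17A (3) and heterozygous unstimulated (3). The IL-17A and unstimulated libraries that share a genotype and a replicate number form a culture below. Nothing in the labels ties these numbers to separate animals, and the p-values therefore reflect library-to-library spread that may be technical. The question was whether loss of BCL10, an adaptor that joins CARD proteins to the protease MALT1 upstream of NF-kB, or exposure to IL-17A changed the transcripts of the factors themselves.

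NF-kB factors are dimers that share a Rel homology domain and wait in the cytoplasm until a signal frees them. RelA (p65), c-Rel and RelB carry activation domains, whereas Nfkb1 and Nfkb2 encode the precursors p105 and p100, which are trimmed to the DNA-binding subunits p50 and p52. The canonical route degrades IkB inhibitors and releases mainly RelA with p50, and the noncanonical route trims p100 and releases RelB with p52. BCL3 is an unusual IkB protein that enters the nucleus and binds p50 or p52 homodimers, as its relative IkB-zeta (Nfkbiz) binds p50. IL-17A acts on keratinocytes in part through NF-kB and IkB-zeta. These measurements are of transcripts, and the signal itself acts on proteins, which were not measured.

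Some of these genes carry kB sites, the DNA sequence that NF-kB binds, beside their own starts. Shown here are the stretches nearest the start that hold such matches, for Nfkb2 (at its first listed start), Rel and Bcl3. These are the members with a match among those whose promoter was at hand. They are from RefSeq on GRCm38.p6, read 5′ to 3′ on the gene's strand, with matches to the kB consensus in capitals. Position 1 is the first transcribed base.
Nfkb2, chr19:46304637-46304736, plus strand, positions -100 to -1: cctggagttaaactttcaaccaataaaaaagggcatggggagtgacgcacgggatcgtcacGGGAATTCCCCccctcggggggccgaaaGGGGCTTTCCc
Rel, chr11:23770970-23771069, minus strand, positions -100 to -1: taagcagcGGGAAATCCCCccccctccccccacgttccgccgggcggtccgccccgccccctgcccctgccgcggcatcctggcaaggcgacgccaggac
Bcl3, chr7:19822736-19822765, minus strand, positions -10 to 20: agtcggcggcagGGGAAGTCCCgctgcccg

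Promoter windows of 300 bases (250 before and 50 after the start) were at hand for 4 of the 6 members, Nfkb2 with 3 starts and Rel, Rela and Bcl3 with 1 each. Nfkb1 and Relb were not in the table. At its first listed start Nfkb2 held 3 matches on either strand, of which 2 overlap at -39 to -29 and 1 lies at -11 to -2. The first of these is the palindrome GGGAATTCCC, found in 13 of 32851 mouse promoter windows (0.040%), that of Nfkb2 included. The string was read from the Nfkb2 window before it was counted, and any fixed string of this length is rare. The share therefore does not show that the site is unusual. The window of the second Nfkb2 start held 2 matches, at -236 to -227 and at 11 to 20. That of the third held 1, at -225 to -216, which is the same bases as the match at 11 to 20, since these windows overlap. Rel held 2 overlapping matches between -92 and -82, and Bcl3 held 1 just after its start, at 3 to 12. Rela held 0 matches to these letters in its window. The kB consensus occurred in 2779 of the 32851 windows (8.46%), and a match describes letters, not binding.

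The libraries were checked first, because the genotype comparisons rest on the labels. Bcl10 stood at 0.969 to 16.998 FPKM in the 4 libraries labelled knockout, where 3 were at 16.4, 16.6 and 16.998 FPKM and the unstimulated library of culture 1 was at 0.969. In the libraries labelled heterozygous it was 59.5 to 72.3 FPKM in cultures 2 and 3, but 16.3 and 18.0 FPKM in culture 1. Those 2 values are near the level of 3 of the 4 libraries labelled knockout. Knockout culture 1 itself holds 0.969 and 16.4 FPKM, so labels or pairing are in doubt on both sides. The genotype differences of the members and the calls of the pathway lists are also given without heterozygous culture 1, a choice made from these values. The labels' library numbers run from 1 to 14 in both knockout cultures and heterozygous culture 1 and from 33 to 38 in heterozygous cultures 2 and 3, and for the last 2 cultures genotype and number cannot be told apart. Keratinocyte markers summed to 10877 to 12176 FPKM in the numbers 1 to 14 and 8579 to 10022 FPKM in the numbers 33 to 38. All 7 leukocyte markers were under 0.1 FPKM in every library. The 3 endothelial markers summed to 4.39 to 6.04 FPKM, with Cdh5 under 0.1 FPKM in every library, Kdr at 3.16 to 4.93 FPKM and Pecam1 at 0.734 to 1.73 FPKM. The 6 fibroblast markers summed to 28.5 and 28.7 FPKM in knockout culture 2 and at most 0.454 FPKM elsewhere. Estimated depth was 16.0 to 50.8 M fragments.

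Rela, Nfkb2 and Nfkb1 were the abundant members, and Relb, Rel and Bcl3 lay several-fold below them. FPKM is a level per length of transcript, so members are set side by side here, with a limit. Gapdh, looked up as a control gene, was at only 0.278 to 4.58 FPKM. The level of a single gene may therefore be misstated in these values, and for the members this was not tested. Over the 10 libraries Rela averaged 28.1 ± 2.21 FPKM, Nfkb2 26.1 ± 7.11, Nfkb1 24.0 ± 2.52, Relb 5.83 ± 1.89, Rel 3.64 ± 0.548 and Bcl3 3.00 ± 0.901 (SD, n = 10). Among the 12054 genes they ranked 2537, 2699, 2907, 7647, 9115 and 9667 by mean level in the same order. Each of the 3 abundant genes exceeded each of the 3 scarce ones in all 10 libraries. Neighbours in this order overlapped. Rela was above Nfkb2 in 6 libraries and Nfkb2 above Nfkb1 in 5, while Relb was above Rel in 9 and Rel above Bcl3 in 8.

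**Figure D1:**
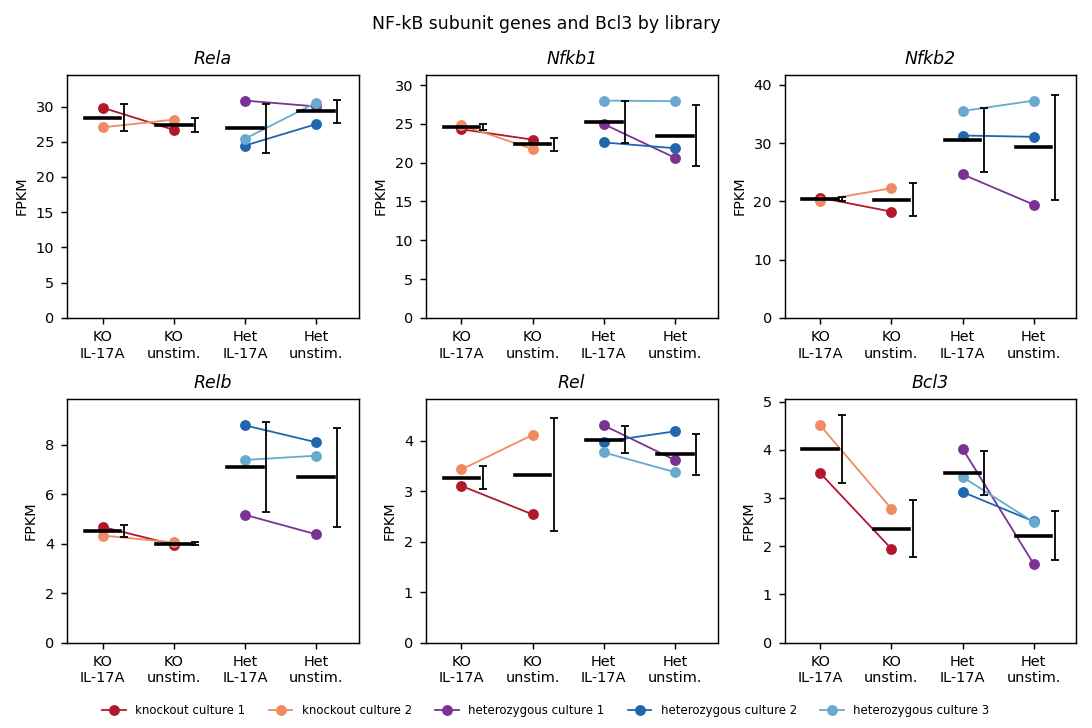
FPKM of each subunit gene and Bcl3 in every library, with 1 panel per gene and its own axis from 0. Points are libraries, lines join the libraries of a culture, thick bars are group means and thin bars are SD (n = 2 for knockout, 3 for heterozygous). The IL-17A points of Bcl3 (3.12 to 4.51 FPKM) lie above all its unstimulated points (1.63 to 2.78 FPKM), and Nfkb2 and Relb are highest in heterozygous cultures 2 and 3.

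Bcl3 (ENSMUSG00000053175; GRCm38 chromosome 7, 19808462 to 19822770, minus strand) was the member whose level differed most with IL-17A. It was 3.52 and 4.51 FPKM in knockout cultures 1 and 2 with IL-17A, against 1.95 and 2.78 FPKM unstimulated. In heterozygous cultures 1, 2 and 3 it was 4.02, 3.12 and 3.43 FPKM with IL-17A, against 1.63, 2.51 and 2.50 FPKM unstimulated. All 5 IL-17A libraries were above all 5 unstimulated ones, which held for 23 of the 12054 genes (0.191%), and for no other member. The ratio of IL-17A to unstimulated level was 1.81 and 1.62 in knockout cultures 1 and 2, and 2.47, 1.24 and 1.37 in heterozygous cultures 1, 2 and 3. The mean within-culture difference was 0.53 ± 0.27 on the log2(FPKM + 1) scale (SD, n = 5), higher in 5 of 5, with a two-sided exact sign-flip permutation p of 0.0625, the smallest that 5 cultures allow.

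The whole-table test did not call Bcl3. With limma and Benjamini-Hochberg adjustment over 12054 genes, the IL-17A difference averaged over both genotypes was log2 0.54 (SE 0.13, 1.45-fold on the log2(FPKM + 1) scale, unadjusted p = 0.00217, adjusted p = 1). That comparison called 6 genes in all (0.0498%), 0 of them members, and Bcl3 was the 1 member among the 1.45% of genes at an unadjusted p under 0.05. In knockout libraries alone the difference was 0.58 (SE 0.20, limma adjusted p = 1) and in heterozygous libraries 0.50 (SE 0.16, limma adjusted p = 1). Those comparisons called 3 genes (0.0249%) and 1 gene (0.0083%), 0 of them members. Bcl3 was again the 1 member at an unadjusted p under 0.05 in each, where 1.46% of genes were in knockout and 1.34% in heterozygous libraries. With culture as a block the averaged call was still missed, at adjusted p = 0.436 for a fixed and 0.0980 for a random block by limma, which called 0.108% and 0.191% of all genes. Without heterozygous culture 1, the heterozygous difference was 0.29 (SE 0.16), against 0.50 with it.

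Counting error alone limits how well Bcl3 can be read in single cultures. Its values correspond to an estimated 65 to 330 fragments per library. The 95% Poisson intervals of the IL-17A and unstimulated libraries did not overlap in knockout cultures 1 and 2 or heterozygous culture 1. They did overlap in heterozygous culture 2, at 2.62 to 3.69 FPKM with IL-17A and 2.00 to 3.13 FPKM unstimulated, and in culture 3, at 2.84 to 4.09 and 2.09 to 2.95 FPKM. These intervals cover counting error only, and the overlap of 2 intervals is not a test of the difference between them. The antisense genes Gm16175 and Gm16174 overlap Bcl3. Gm16175 was at up to 0.244 FPKM and Gm16174 at up to 0.568 FPKM, and with no strand setting given, their reads and those of Bcl3 cannot be told apart.

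The 5 subunit genes proper differed less with IL-17A, and their libraries overlapped. Nfkb1 (ENSMUSG00000028163; chromosome 3, 135584655 to 135691547, minus strand), the p105 and p50 gene, was 24.3 and 24.9 FPKM with IL-17A, against 22.98 and 21.8 FPKM unstimulated, in knockout cultures 1 and 2. In heterozygous cultures 1, 2 and 3 it was 24.99, 22.6 and 28.0 FPKM with IL-17A, against 20.6, 21.9 and 27.9 FPKM unstimulated. Besides Bcl3 it was the one member with a higher IL-17A value in all 5 cultures, a count that 440 of 12054 genes reached (3.65%). Its differences were small, 0.0037 to 0.26 on the log2(FPKM + 1) scale with a mean of 0.12 ± 0.11 (SD, n = 5; exact sign-flip permutation p = 0.0625), and limma gave adjusted p = 1.

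Relb, Nfkb2, Rel and Rela had mixed signs. Relb was higher with IL-17A in 4 of 5 cultures (mean 0.11 ± 0.09, exact permutation p = 0.125), Nfkb2 in 3 of 5 (0.06 ± 0.19, exact permutation p = 0.5625), Rel in 3 of 5 (0.05 ± 0.18, exact permutation p = 0.5625) and Rela in 2 of 5 (-0.06 ± 0.16, exact permutation p = 0.4375), each on the log2(FPKM + 1) scale with n = 5. Knockout culture 1 and heterozygous culture 1 had higher IL-17A values for all 6 members. In knockout culture 2, 3 of the 6 were lower with IL-17A (Nfkb2, Rel and Rela), in heterozygous culture 3 also 3 (Nfkb2, Rela and Relb) and in heterozygous culture 2, 2 (Rel and Rela). Over the 6 members the median averaged difference was 0.08, against -0.01 over all genes tested, and 5 of 6 were positive (83.3%, against 46.3% of all genes).

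**Figure D2:**
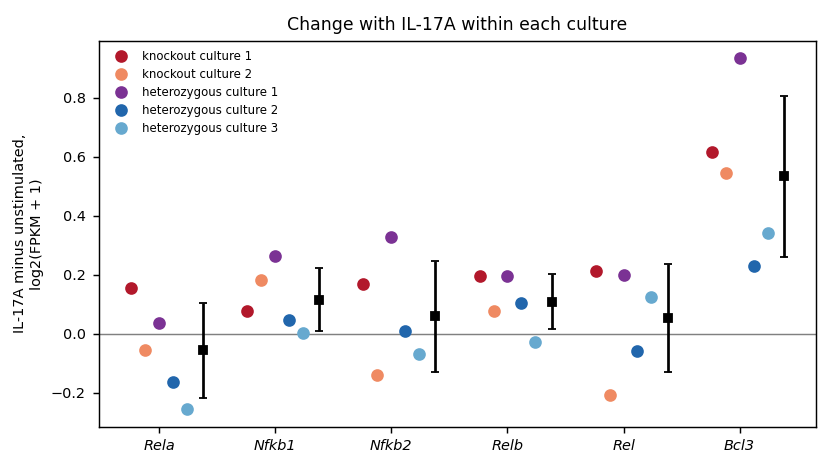
Difference between the IL-17A and the unstimulated library of each culture in log2(FPKM + 1), for the 5 subunit genes and Bcl3. Coloured points are cultures, black squares are means and bars are SD (n = 5). Bcl3 lies between 0.23 and 0.93, above 0 in 5 of 5, while the other members lie between -0.26 and 0.33.

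The response to IL-17A was also compared between genotypes, and 0 of 6 members were called. Bcl3 differed by 0.08 (SE 0.25, limma adjusted p = 1; knockout minus heterozygous response), and the largest difference among the members was that of Rela, 0.18 (SE 0.17, limma adjusted p = 1). Without heterozygous culture 1 the largest was that of Bcl3, 0.29 (SE 0.22, limma adjusted p = 1), with Rela at 0.26 (SE 0.14, adjusted p = 1). Within the library numbers 1 to 14 it had the other sign for Bcl3, at -0.35 (SE 0.31, limma adjusted p = 0.975). The limma fit of all libraries called 0 of 12054 genes (0%) and had 143 at an unadjusted p under 0.05 (1.19%), with 0 members among them. The SE of the members in that fit is 0.17 to 0.36, and a call needs a difference of several SE. In the same fit the averaged Bcl3 difference, 0.54 (SE 0.13), was not called. Differences in response well above 0.36 could therefore have been missed here.

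Nfkb2 and Relb, the genes of the p100 precursor and of its usual partner RelB, were lowest in the knockout libraries and in heterozygous culture 1. Nfkb2 (ENSMUSG00000025225; chromosome 19, 46304320 to 46312385, plus strand) was 20.6 and 20.1 FPKM in the knockout libraries with IL-17A, against 24.6, 31.3 and 35.5 FPKM in heterozygous cultures 1, 2 and 3 with IL-17A. Unstimulated it was 18.2 and 22.3 FPKM in knockout libraries, against 19.4, 31.1 and 37.3 FPKM in heterozygous ones. The IL-17A groups do not overlap, with knockout lower, whereas unstimulated heterozygous culture 1 lies among the knockout values. Psd overlaps Nfkb2 on the opposite strand at 0.353 to 0.914 FPKM.

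Relb (ENSMUSG00000002983; chromosome 7, 19606217 to 19629438, minus strand) followed the same division. With IL-17A it was 4.67 and 4.32 FPKM in knockout libraries, against 5.16, 8.78 and 7.38 FPKM in heterozygous cultures 1, 2 and 3. Unstimulated it was 3.96 and 4.04 FPKM in knockout libraries, against 4.37, 8.09 and 7.55 FPKM in heterozygous ones. Knockout lay below heterozygous without overlap in both conditions, but heterozygous culture 1 was nearer to the knockout libraries than to the other heterozygous cultures. Among the members Relb alone lay lower in knockout unstimulated (15.4% of all genes did), and Nfkb2, Rel and Relb did so with IL-17A (13.8% of all genes).

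Neither gene was called between genotypes in the fit of all libraries. For Relb, knockout minus heterozygous was log2 -0.58 unstimulated (SE 0.25, limma adjusted p = 0.728) and -0.53 with IL-17A (SE 0.25, adjusted p = 0.507). For Nfkb2 it was -0.47 unstimulated (SE 0.25, limma adjusted p = 0.728) and -0.54 with IL-17A (SE 0.25, adjusted p = 0.507). In these comparisons limma called 0 of 12054 genes unstimulated (0%, with 562, or 4.66%, at an unadjusted p under 0.05, of which Relb was the 1 member) and 3 with IL-17A (0.0249%), 0 of them members. With IL-17A 8.14% of genes were at an unadjusted p under 0.05, 0 of them members. The other 4 members lay between -0.23 and 0.14 in both conditions.

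The result turned on heterozygous culture 1. Without its 2 libraries, Relb was lower in knockout by log2 -0.82 unstimulated (SE 0.11, limma adjusted p = 0.0279) and -0.72 with IL-17A (SE 0.11, adjusted p = 0.0274). Nfkb2 was then at -0.73 unstimulated (SE 0.14, limma adjusted p = 0.0648) and at -0.68 with IL-17A (SE 0.14, adjusted p = 0.0408). The other 4 members were then at -0.16 to -0.07 unstimulated (limma adjusted p = 0.548 to 0.782) and at -0.19 to 0.22 with IL-17A (adjusted p = 0.220 to 0.886). So 1 member was called unstimulated, where 0.970% of all genes were, and 2 with IL-17A, where 6.65% were. Leaving out knockout culture 1 instead, with 1 knockout library a group, put Relb at -0.57 unstimulated and -0.58 with IL-17A. Nfkb2 was at -0.33 and -0.56 in that setting. Within the numbers 1 to 14, where knockout is set against heterozygous culture 1 alone, Relb differed by -0.10 unstimulated and -0.16 with IL-17A and Nfkb2 by 0.05 and -0.26 (SE 0.11 to 0.14, limma adjusted p = 0.977 to 0.990). That last fit takes the spread of single heterozygous libraries to be that of the knockout pairs.

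**Figure D3:**
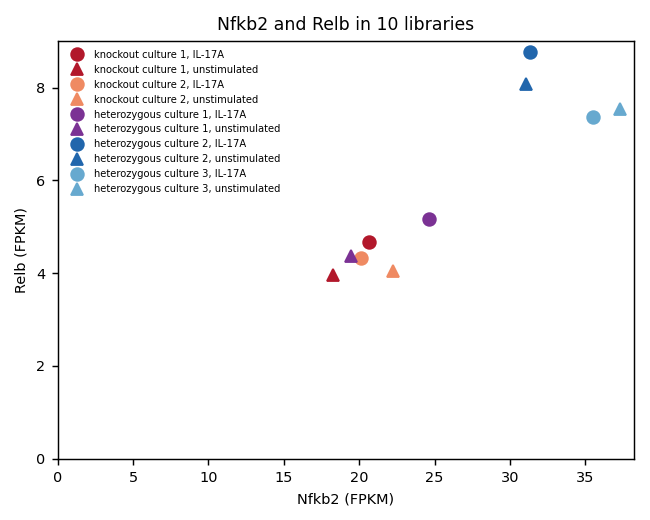
Relb against Nfkb2 in FPKM, 1 point per library, circles for IL-17A and triangles for unstimulated, coloured by culture. The 6 libraries numbered 1 to 14 lie at 18.2 to 24.6 FPKM of Nfkb2 and 3.96 to 5.16 of Relb, apart from the 4 libraries of heterozygous cultures 2 and 3 at 31.1 to 37.3 and 7.38 to 8.78.

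By library number, Nfkb2 was 18.2 to 24.6 FPKM in the 6 libraries numbered 1 to 14 and 31.1 to 37.3 FPKM in the 4 numbered 33 to 38. Relb was 3.96 to 5.16 FPKM in the 6 and 7.38 to 8.78 FPKM in the 4. These were the 2 members whose number sets did not overlap, both lower in 1 to 14, and 18.4% of all genes tested were lower in this way (35.9% in either direction), so the division is widespread and not particular to them. The 5 melanocyte markers moved along with it, summing to 168 to 196 FPKM in 1 to 14 and 315 to 406 FPKM in 33 to 38, and their part in the result was not tested. In such bulk samples fewer cells of a type and less RNA per cell cannot be told apart. Nfkb2 and Relb correlated at r = 0.92 across the 10 libraries on the log2(FPKM + 1) scale, a description of libraries that fall into these sets.

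The make-up of the subunit pool differed between the same sets. Of the summed FPKM of the 5 subunit genes, Nfkb2 held 24.5% to 27.7% in the numbers 1 to 14 and 33.5% to 35.5% in 33 to 38. Relb held 5.03% to 5.74% in 1 to 14 and 7.07% to 9.63% in 33 to 38. Rela took the larger share in 1 to 14, 33.9% to 38.4%, against 25.4% to 29.7% in 33 to 38. Its level overlapped between the sets, at 26.7 to 30.8 FPKM against 24.5 to 30.5 FPKM. Shares of 1 sum are tied to each other, so they partly restate the levels of Nfkb2 and Relb. Nfkb2 was the most abundant subunit transcript in the 4 libraries of heterozygous cultures 2 and 3, and Rela in the other 6. The ratio of Nfkb2 to Nfkb1, the genes of the 2 precursors, was 0.794 to 1.02 in 1 to 14 and 1.27 to 1.42 in 33 to 38. The ratio of Relb to Rela was 0.144 to 0.167 in 1 to 14 and 0.247 to 0.359 in 33 to 38. Within the numbers 1 to 14 the shares of knockout and heterozygous libraries lay close together, with Nfkb2 at 24.5% to 27.7% in knockout and at 24.9% and 27.4% in heterozygous culture 1.

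**Figure D4:**
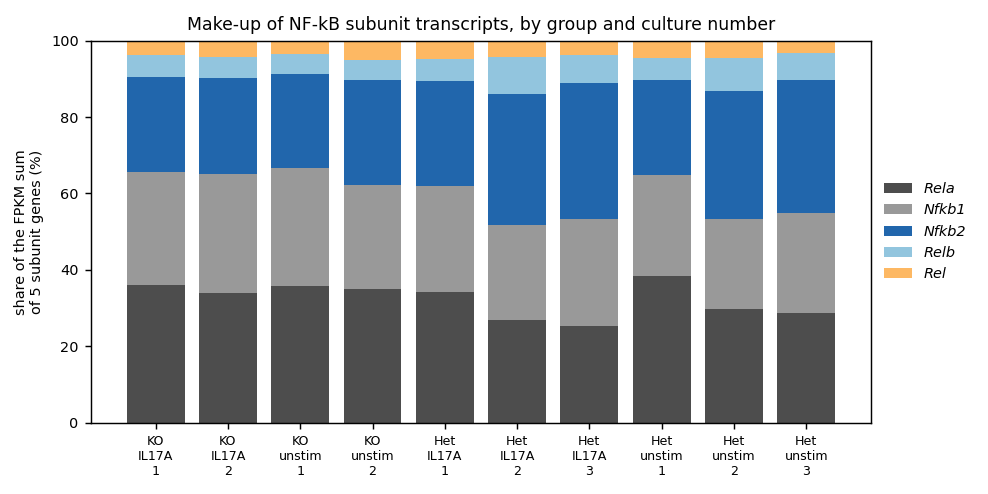
Share of each subunit gene in the summed FPKM of the 5, in percent, 1 stacked bar per library, labelled by group and replicate number. In heterozygous replicates 2 and 3 the blue Nfkb2 segment is 33.5% to 35.5%, against 24.5% to 27.7% in the other 6 bars.

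Rela and Rel did not follow this division. Rela (ENSMUSG00000024927; chromosome 19, 5637483 to 5648130, plus strand), the gene of the main activating subunit p65, was 29.8 and 27.0 FPKM in knockout with IL-17A, against 30.8, 24.5 and 25.4 FPKM in heterozygous cultures 1, 2 and 3. Unstimulated it was 26.7 and 28.1 FPKM in knockout, against 30.0, 27.5 and 30.5 FPKM in heterozygous libraries. Its highest and lowest values were within 1.26-fold of each other, the narrowest span of the 6 members.

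Rel (ENSMUSG00000020275; chromosome 11, 23736847 to 23770970, minus strand), the c-Rel gene, best known from lymphocytes, was 3.10 and 3.43 FPKM in knockout with IL-17A, against 4.30, 3.98 and 3.77 FPKM in heterozygous cultures 1, 2 and 3. Unstimulated it was 2.54 and 4.11 FPKM in knockout, against 3.62, 4.19 and 3.38 FPKM in heterozygous libraries. With IL-17A the knockout values lay below the heterozygous ones, at log2 -0.23 (SE 0.16, limma adjusted p = 0.514), or -0.19 without heterozygous culture 1 (SE 0.18, adjusted p = 0.468). Unstimulated knockout culture 2, which held the fibroblast markers (28.5 FPKM), had the third highest Rel value of all. The IL-17A library of that culture held them too (28.7 FPKM), with Rel at 3.43 FPKM. The part of those cells was not tested.

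The other genes of the pathway were taken from 6 lists. Of the IkB genes, 3 of 5 passed the filter (Nfkbie and Nfkbid did not), and 1 rose with IL-17A averaged over both genotypes, Nfkbiz, by log2 0.90 (SE 0.11, limma adjusted p = 0.0419). Nfkbiz was 48.9 and 49.1 FPKM in knockout with IL-17A, against 23.2 and 27.2 FPKM unstimulated, and 55.0, 40.7 and 49.99 FPKM in heterozygous cultures 1, 2 and 3 with IL-17A, against 23.3, 25.3 and 30.3 FPKM unstimulated. Its IL-17A and unstimulated libraries did not overlap, as for Bcl3. With culture as a fixed block its adjusted p was 0.0693 by limma. Leaving out any library but the IL-17A library of heterozygous culture 2 also ended the call, at log2 0.84 to 0.95 (limma adjusted p = 0.0623 to 0.232).

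The remaining lists held no call for IL-17A in the fit without a block. Of 16 NF-kB target genes 12 were tested (Il1b, Il6, Lcn2 and Traf1 were below the filter), with a median averaged difference of log2 0.36 and 10 of 12 positive. Among these, Csf3, a granulocyte growth factor, was at 0.77, not called without a block (limma adjusted p = 1) but called with culture as a fixed block (adjusted p = 0.0278), where 13 of 12054 genes were (0.108%). Cxcl1, a neutrophil attractant, had the largest difference on this list, 0.94 (SE 0.33, limma adjusted p = 1). All 10 genes of the IKK complex and its upstream activators were tested, with a median of -0.03, the largest being Chuk, the IKK-alpha gene, at -0.13. Of 9 noncanonical genes 6 were tested (Map3k14, Cd40 and Tnfrsf11a were below the filter), with a median of 0.03, the largest being the adaptor gene Traf3 at -0.20. The 5 brakes had a median of 0.02, with Tnip2 at 0.13, and of 5 further Rel-homology genes 3 were tested (Nfatc2 and Nfatc4 were not), with Nfat5 at -0.34.

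Between genotypes the lists held 0 calls by limma in the fit of all libraries. The 12 target genes had a median difference of log2 -0.79 unstimulated and -1.15 with IL-17A, knockout minus heterozygous, against -0.01 over all genes in both. Without heterozygous culture 1 the medians were -1.20 and -1.42, and limma called 7 of the 12 lower in knockout unstimulated (Cxcl1, Cxcl2, Ccl20, Csf2, Icam1, Tnf and Il1a) and 8 with IL-17A, the same 7 and Csf3, where 0.970% and 6.65% of all genes were called. Tnf, the gene of the cytokine TNF, was then at -2.05 unstimulated (SE 0.12, limma adjusted p = 0.00127) and -2.34 with IL-17A (SE 0.12, adjusted p = 0.00125). Nfkbia, the gene of IkB-alpha, and Tnfaip3, the gene of the brake A20, were also called lower in both conditions, and Tnip1 and Birc3 with IL-17A, while the IKK and Rel-homology lists held 0 calls. These genes were named after their values were seen. Within the library numbers 1 to 14 the target gene medians were 0.03 unstimulated and -0.57 with IL-17A. Of the 12 genes, 6 were lower in knockout unstimulated and 11 with IL-17A, against 6244 and 5932 of all 12073 genes in that fit. It sets knockout against 1 heterozygous library a condition, so these are effect sizes only. Genotype and library number cannot be told apart in the values without heterozygous culture 1.

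By library number, 5 of the 12 were lower in 1 to 14 without overlap, 1 was higher, and the genes are named after their values were seen: Cxcl2, Ccl20, Csf2, Icam1 and Tnf lower, Sod2 higher. Likewise 3 of the 6 noncanonical genes were lower in 1 to 14, the ubiquitin ligase genes Birc2 and Birc3 and the receptor gene Tnfrsf12a, as were 2 of 3 IkB genes, Nfkbia and Nfkbib. Of the 5 brakes 2 were lower (Tnfaip3 and Tnip1) and 1 higher (Otulin), of the 10 IKK genes 1 was lower (Ikbkg) and 1 higher (Rbck1), and of the 3 Rel-homology genes 0. These shares stand beside 18.4% of all genes, on the number sets that cannot be told apart from genotype in heterozygous cultures 2 and 3.

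The genes whose pattern over the 10 libraries was most like each member were listed by Pearson r of log2(FPKM + 1), as a description of 10 libraries that share cultures and number sets. Nearest to Bcl3 was Nfkbiz (r = 0.91), its close relative, followed by Spin1 (0.90) and Alas1 (0.90). Nearest to Relb were Rtkn (0.99), Lce1h (0.99), a late cornified envelope gene, and Bcl2l15 (0.99), and nearest to Nfkb2 were Pdgfb (0.99), Fermt1 (0.98) and Igfbp3 (0.97). For Nfkb1 these were the cornified envelope genes Sprr2d (0.91) and Sprr2b (0.90), which have near-identical copies and so uncertain values, and Cdcp1 (0.89). For Rel they were Gm16379 (0.94), Phospho2 (0.89) and Msantd2 (0.89), and for Rela 4931406P16Rik (0.93), Snora34 (0.93) and Psd4 (0.92). Bcl3 itself was not close to any subunit gene, the highest being Nfkb1 (0.50), and Rela was below 0.04 with every other member.

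**Figure D5:**
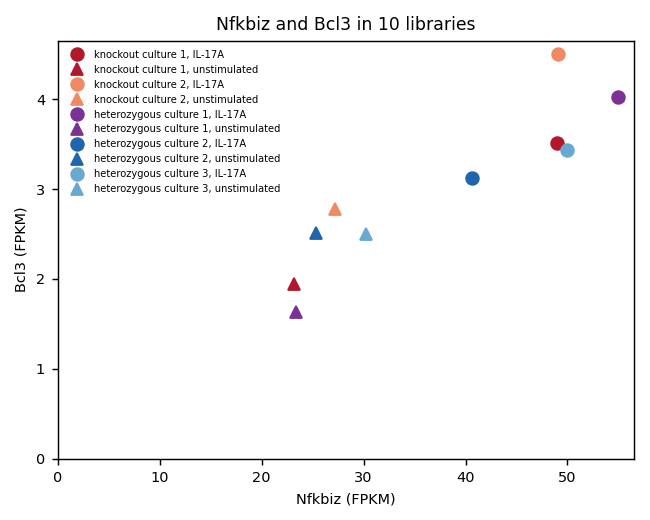
Bcl3 against Nfkbiz in FPKM, 1 point per library, circles for IL-17A and triangles for unstimulated, coloured by culture. The 5 IL-17A libraries (40.7 to 55.0 FPKM of Nfkbiz, 3.12 to 4.51 of Bcl3) lie apart from the 5 unstimulated ones (23.2 to 30.3 and 1.63 to 2.78).

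Relb and Bcl3 lie on the same stretch of chromosome 7, 179023 bp apart, with 10 listed genes between them, of which 7 had a mean of at least 1 FPKM. Their patterns differed, with r = 0.08 between them. Bcl3 libraries divided by IL-17A and Relb libraries by number set.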

How the data were processed

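The authors deposited 1 table of FPKM values in 10 libraries, made from 100 ng of total RNA with poly(A) selection, per the labels' protocols. The submitters' processing notes name HISAT2, SAMtools, StringTie and DESeq2, with build mm10. Strand setting and annotation release were not given in those notes. Of 37991 identifiers, 32919 matched a symbol and a GRCm38 position. No count model was fitted to FPKM. Depth was estimated from single-exon genes of 300 to 3000 bp, with the commonest low value taken as 1 fragment. Near that depth, the one was chosen at which most low values, of 1 to 3 fragments, fell within 0.05 of a whole fragment. Their share was 48.6% to 55.3%, against 10% if evenly spread at a fixed depth. As the share was maximised by the choice, it is not a test of the depth, on which the fragment estimates rest. For a gene of 1 kb, 3 fragments equal 0.0591 to 0.188 FPKM, for counting error only.

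Genes averaging 1 FPKM or more were tested on log2(FPKM + 1) with limma 3.58.1 (R 4.3.3) and its mean-variance trend, in 1 fit of 4 group means, two-sided, with Benjamini-Hochberg adjustment over 12054 genes and a threshold of 0.05. Fold changes on this scale understate those of low genes. The comparisons share libraries: each genotype contrast reuses the libraries of the IL-17A contrasts. Across genes, the deviations of a culture's libraries from their group means correlated at 0.23 for knockout (1 value, as 2 cultures mirror each other). For heterozygous cultures 1, 2 and 3 they correlated at 0.61, 0.49 and 0.14. The heterozygous values also hold the division between library number sets, so they do not establish the pairing. Numbers were taken to pair libraries within a genotype as an assumption, as a block and in the exact sign-flip test.

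All 6 members were named. Of the other pathway genes, those called with or without the block, the largest averaged IL-17A difference per list and those below the filter were named, with the 3 genes of most similar pattern per member. The members, lists and alternatives were chosen with earlier results of these data known. Promoter sequences came from RefSeq (GRCm38.p6).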

Additional observations from a re-analysis of the deposited data

How the results depend on the processing

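Without a block, 0 of 6 members were called by limma in each of the 6 comparisons, and 143 of 148 counts under alternatives stayed at 0. Leaving out any 1 library gave 0 members in each comparison. The exceptions were 2 settings. Without both libraries of heterozygous culture 1, 1 member was called between genotypes unstimulated and 2 with IL-17A. With library weights, 2 were called for IL-17A in heterozygous libraries (Rela, log2 -0.25, and Bcl3, 0.35), 3 between genotypes unstimulated (Nfkb1, -0.29, Nfkb2, -0.83, and Relb, -0.76) and 2 with IL-17A (Nfkb2 and Relb). These weights were 11.8 and 33.4 on the libraries of heterozygous culture 3 and 0.197 to 1.14 on the other 8, their estimation stopped before it converged, and they called 38.6%, 24.3% and 29.5% of all genes. Of 876 single member values 826 moved by at most 1 SE without a call, 40 moved by more than 1 SE without a call and 10 gained a call. The sign was opposite to that reported in 62 of the 876, 0 of them called. The averaged Bcl3 difference was 0.43 to 0.76 and positive in all 24 alternatives, at lowest adjusted p = 0.0597.

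With culture as a fixed or random replicate block, 0 members were called, so the block changed no call of a member. It moved the count over all genes for averaged IL-17A, 6 without a block, to 13 (fixed) and 23 (random), for IL-17A in knockout libraries, 3, to 0 and 14, and in heterozygous libraries, 1, to 0 and 15. Without heterozygous culture 1 the genotype counts over all genes were 117 unstimulated and 802 with IL-17A, against 0 and 3. Genotype contrasts cannot be fitted within cultures, so the fixed block gave none. Leaving out knockout culture 2 and both fixed-block settings with another pseudocount or TPM scaling were chosen after seeing the data. With 2 or 3 libraries per group, estimated at 16.0 to 50.8 M fragments, small changes of scarce members such as Bcl3 are limited by counting error. A residual Bcl10 level does not settle the genotype of any library, since what the allele removes was not given.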
